A study of Homo sapiens with 2 samples.

Results

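The respiratory chain genes were compared in H1944, a cell line grown from a human adenocarcinoma of the lung. One library carried a control short hairpin RNA (shCON) and the other a short hairpin RNA meant to lower USP12 (shUSP12), a gene whose product takes ubiquitin off other proteins. The members were those whose gene names fit a naming rule, and comprised 62 of the 59125 rows of the count tables. Of these, 13 were mitochondrial mRNAs, the protein-coding genes of the mitochondrial DNA whose names start with MT-ND, MT-CO, MT-CYB or MT-ATP. The other 49 were nuclear genes for subunits of complex I (names NDUFA, NDUFB, NDUFC, NDUFS or NDUFV followed by digits), complex II (SDHA to SDHD) and complex III (8 UQCR genes). Each group held 1 library, so nothing below has a replicate check, no p-value was computed, and every difference is one between these 2 libraries. The labels do not say which hairpin against USP12 was used, nor how many cultures or clones stood behind a library.

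The respiratory chain is a series of protein complexes in the inner mitochondrial membrane that pass electrons from NADH and succinate to oxygen and pump protons on the way. ATP synthase, also called complex V, uses the returning protons to make ATP. Complexes I, III, IV and V each join a few subunits made inside the mitochondrion from its own DNA with many that are encoded in the nucleus and imported, whereas complex II is encoded in the nucleus alone. The mitochondrial mRNAs are cut out of long transcripts that run around almost the whole circular genome, so genes of one strand start from shared precursors and their levels then differ with how long each mRNA lasts.

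The 2 libraries held 18249112 counts (shCON) and 17475359 counts (shUSP12). Counts were scaled to counts per 1000000 (CPM) with TMM factors, and the difference was expressed as the log2 ratio of shUSP12 over shCON after adding 0.1 CPM. The intervals are 95% intervals by the exact Clopper-Pearson method, and they hold the error of counting alone. USP12 itself had 711 counts in shCON and 219 in shUSP12, which was 29.3% of the shCON level. The libraries also stood apart in rows other than the knockdown target. Of 9 lung and epithelial markers, NKX2-1 had 0 and 312 counts, KRT19 had 32 and 4452, EPCAM had 115 and 1566, and CDH1 had 1026 and 2496 in shCON and shUSP12. KRT7 had 13626 and 22378 counts, while KRT8 (85596 and 62180) and KRT18 (24132 and 18096) were lower in shUSP12. NAPSA was read 9 and 12 times, and SFTPB had 0 counts in both. The 8 markers of other cell types summed to 2424 and 1115 counts. Of these, COL1A1 (1911 and 462) and DCN (481 and 597) held the most, CD14 had 21 and 31, and PECAM1, VWF, COL1A2, PTPRC and CD3E had at most 13 in either library. There were 119 rows with 50 or more counts in shUSP12 that were read no more than 3 times in shCON. The reverse, 50 or more counts in shCON and no more than 3 in shUSP12, held for 1 row. None of the members was among these rows, and the part of this difference between the libraries in the values below was not tested. In RNA from a whole culture, fewer cells of one kind and less RNA per cell cannot be told apart.

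The mitochondrial mRNAs were mostly lower in shUSP12, and by unequal amounts. Their summed counts were 761325 in shCON, or 4.17% of the library, and 634862 in shUSP12, or 3.63%. The median log2 ratio of the 13 mRNAs was −0.36, against −0.010 for the 14612 rows whose mean reached 1 CPM, and 11 of the 13 lay below 0, as did 51.1% of those rows. A row was called higher at a log2 ratio of 0.322 or more and lower at minus that value or less. By that rule 7 mitochondrial mRNAs were lower and 0 were higher, where the background was 20.8% of rows lower and 21.4% higher. Their intervals lay wholly below 0 for 10 and wholly above 0 for 2 (background 29.1% and 27.1%). A counting interval narrows as counts rise. The 13 mRNAs had 1502 counts or more in each library, whereas the background began at a mean of 1 CPM. These interval shares were therefore not compared at like depth and show little beyond it. At least 1.5-fold lower was 1 mRNA, MT-CO3 (background 9.11%), and 0 were 2-fold lower or higher (background 3.01% and 6.48%). The 13 mRNAs come from shared precursors and are not 13 independent observations.

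**Figure D1:**
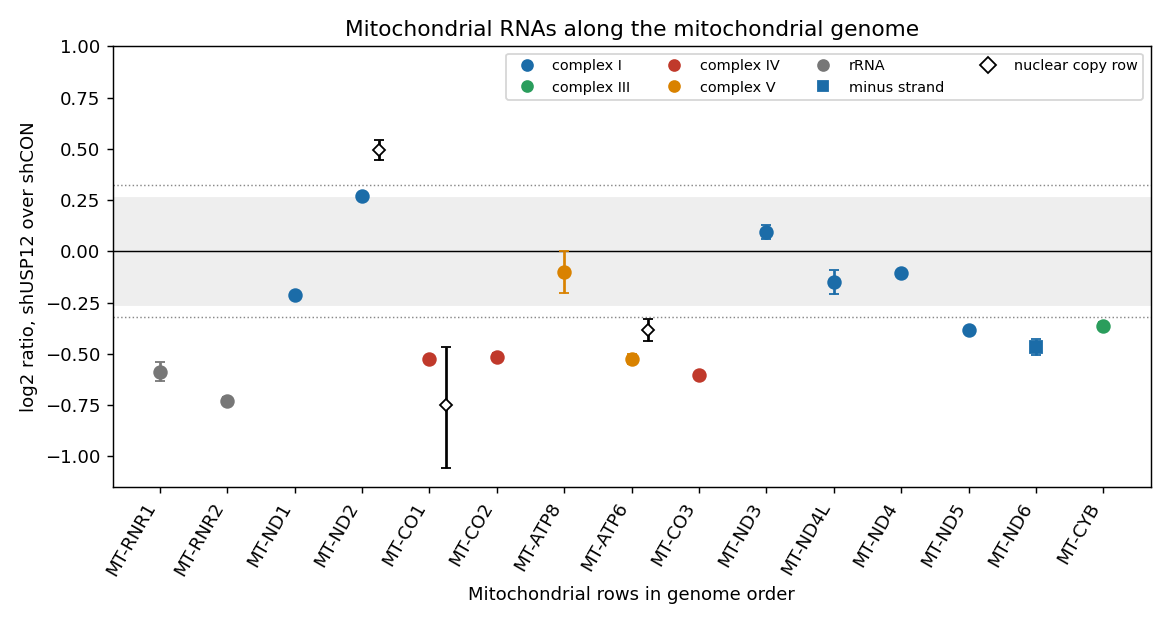
Log2 ratio of shUSP12 over shCON for the 13 mitochondrial mRNAs and the 2 mitochondrial rRNAs, placed in the order of the mitochondrial genome. Bars are 95% counting intervals, open diamonds are rows of nuclear copies, the grey band spans the middle 50% of all rows and dotted lines mark the call thresholds of 0.322. The 3 complex IV mRNAs and MT-ATP6 lie between −0.61 and −0.51, whereas MT-ND2 lies at 0.27.

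The 3 mRNAs of complex IV, the cytochrome c oxidase that hands electrons to oxygen, were all lower, by like amounts. MT-CO1, which encodes the catalytic subunit, had 233422 counts in shCON and 170234 in shUSP12, and its log2 ratio was −0.53 (95% interval −0.53 to −0.52). MT-CO2, whose product takes electrons from cytochrome c, had 68212 and 50113 counts (−0.51, interval −0.53 to −0.50). MT-CO3 had 58607 and 40427 counts and the lowest ratio of the 13, −0.61 (interval −0.62 to −0.59). All 3 were thus at 65.7% to 70.0% of their shCON levels. The ratio of MT-CO1 to MT-CO2 counts was 3.42 in shCON and 3.40 in shUSP12, so these 2 mRNAs kept nearly the same proportion.

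MT-ATP6 and MT-ATP8 encode membrane subunits of ATP synthase, and the MT-ATP6 product forms part of its proton path. The 2 reading frames overlap on the plus strand of the mitochondrial genome, and both are carried by 1 mRNA. The 46 shared bases are given here because reads that lie within them belong to both rows. They span chrM:8527-8572 of hg38, with the MT-ATP6 start codon and the MT-ATP8 stop codon in capitals.
MT-ATP8 and MT-ATP6 overlap: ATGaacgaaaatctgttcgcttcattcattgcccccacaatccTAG
MT-ATP6 had 35358 counts in shCON and 25806 in shUSP12, which gave a log2 ratio of −0.52 (interval −0.55 to −0.50). MT-ATP8 had 1535 and 1502 counts, and its ratio of −0.10 had an interval from −0.21 to 0.002 that included 0. The overlap makes up 22.2% of the 207 bases of MT-ATP8. Although they share an mRNA, MT-ATP8 had 0.0434 counts for each MT-ATP6 count in shCON and 0.0582 in shUSP12. How the counting treated fragments that touch both frames was not tested.

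MT-CYB, the cytochrome b of complex III that carries electrons across the membrane, had 56332 counts in shCON and 45990 in shUSP12, which gave a log2 ratio of −0.36 (interval −0.38 to −0.34). This was the median of the 13 mRNAs.

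The 7 mRNAs of complex I, the NADH dehydrogenase, ranged from −0.47 to 0.27 and lay on both sides of 0. Of these mRNAs, 2 were called lower. MT-ND6, the 1 mitochondrial mRNA encoded on the minus strand of the annotation, had 11512 and 8744 counts (−0.47, interval −0.51 to −0.43). MT-ND5, a proton-pumping subunit at the far end of the membrane arm, had 67633 and 54365 counts (−0.39, interval −0.40 to −0.37). A smaller difference in the same direction was found for 3 others. MT-ND1, which lines the quinone site, had 59730 and 54095 counts (−0.21). MT-ND4L had 5070 and 4797 counts (−0.15), and the neighbouring MT-ND4 had 93134 and 90893 counts (−0.11, interval −0.12 to −0.092). The reading frames of MT-ND4L and MT-ND4 overlap by 7 bases, and MT-ND4L had 0.0544 and 0.0528 counts for each count of MT-ND4.

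MT-ND2 and MT-ND3 were the 2 mitochondrial mRNAs with a level above that of shCON. MT-ND2 (ENSG00000198763), a proton-pumping subunit encoded at chrM:4470-5511 on the plus strand, had 58799 counts in shCON and 74463 in shUSP12, or 3373 and 4069.8 CPM. Its log2 ratio was 0.27 (interval 0.26 to 0.29), which is short of the call threshold. MT-ND3 had 11981 and 13433 counts, a ratio of 0.10 (interval 0.059 to 0.13). On the genome MT-ND2 lies between MT-ND1 (−0.21) and MT-CO1 (−0.53), and MT-ND3 lies between MT-CO3 (−0.61) and MT-ND4L (−0.15), so the ratios did not follow gene order.

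The proportions among the 13 mRNAs do not depend on how the libraries are scaled. MT-ND2 made up 7.72% of their counts in shCON (interval 7.66 to 7.78) and 11.7% in shUSP12 (interval 11.65 to 11.8). MT-CO1 made up 30.7% (interval 30.6 to 30.8) and 26.8% (interval 26.7 to 26.9). MT-ND4 made up 12.2% and 14.3%. In shCON MT-ND2 and MT-CO3 were read about equally often, with a ratio of 1.003, while in shUSP12 the ratio was 1.84. The complex I mRNAs together gave 0.855 counts for each complex IV count in shCON and 1.15 in shUSP12, a shift of 0.43 on the log2 scale. After TMM scaling, the complex I sum was 93.1% of its shCON level and the complex IV sum was 69.0%. With scaling to total counts alone, MT-ND4 and MT-ATP8 turned from below to above 0 (0.027 and 0.031), the interval of MT-ND4L included 0, and MT-ND2 reached 0.40 and was called higher, while MT-CO1 stayed below 0 at −0.39.

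Nuclear DNA holds old copies of mitochondrial genes, and fragments that fit a copy as well as the original can be lost or misassigned when unique alignments are counted. The tables held rows for such copies, of which 5 had more than 20 counts over both libraries. MTND2P28, on chromosome 1 from 629640 to 630683, had 5660 counts in shCON and 8365 in shUSP12, equal to 9.63% and 11.2% of those of MT-ND2. MTATP6P1, on chromosome 1 from 633696 to 634376, had 6498 and 5230 counts, or 18.4% and 20.3% of those of MT-ATP6. MTCO1P12 had 253 and 157 counts, MTND4P12 had 60 and 60, and MTND5P11 had 14 and 10. Over its length, MTND2P28 was identical to MT-ND2 at 98.4% of 1042 aligned bases, with 17 differences and an unbroken identical run of 266 bases. MTATP6P1 matched MT-ATP6 at 98.5% of 681 bases, with 10 differences and a longest identical run of 141 bases.

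The most divergent stretches of 100 bases show how few positions tell a copy from its source. The sequences are those of hg38 on the plus strand, and the capitals mark the bases at which the pair differs. The stretches are chrM:4892-4991 and chr1:630062-630161 for the first pair, with 5 differences, and chrM:8619-8718 and chr1:633788-633887 for the second, with 4.
MT-ND2: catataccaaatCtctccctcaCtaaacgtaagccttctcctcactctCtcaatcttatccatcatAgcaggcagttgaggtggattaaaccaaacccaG
MTND2P28: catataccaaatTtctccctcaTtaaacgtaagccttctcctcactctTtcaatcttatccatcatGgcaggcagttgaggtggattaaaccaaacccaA
MT-ATP6: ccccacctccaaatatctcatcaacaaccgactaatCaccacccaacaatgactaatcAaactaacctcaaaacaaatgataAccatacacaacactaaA
MTATP6P1: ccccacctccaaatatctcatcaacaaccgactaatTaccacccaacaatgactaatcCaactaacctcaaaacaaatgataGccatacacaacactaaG
Each copy moved in the direction of its source gene. MTND2P28 had a log2 ratio of 0.49 (interval 0.44 to 0.54) beside 0.27 for MT-ND2, and MTATP6P1 had −0.38 (interval −0.44 to −0.33) beside −0.52 for MT-ATP6. When the counts of all copies were added to their source gene, MT-ND2 came to 0.29 and MT-ATP6 to −0.50, so the order of the 2 genes was unaffected. The part of misassigned fragments in these rows was not tested.

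The counts that remained for the mitochondrial rRNAs, which build the ribosome that translates these mRNAs, were also lower in shUSP12. MT-RNR2 had 68710 and 43498 counts (−0.73, interval −0.75 to −0.71), and MT-RNR1 had 8824 and 6165 (−0.59, interval −0.63 to −0.54). They lie just before MT-ND1 on the same strand. The libraries were made from mRNA and filtered for rRNA by the authors, so these counts are what remained and give no rRNA level. Of the 22 mitochondrial tRNA rows, 21 had at most 6 counts in either library. The other, MT-TP, had 935 counts in shCON and 1063 in shUSP12.

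The nuclear-encoded subunits stayed close to the level of all rows. Their summed counts were 61162 in shCON and 60780 in shUSP12, which after scaling was 94.7% of shCON. Of the 49, 47 had a mean of at least 1 CPM. The median log2 ratio of these 47 was −0.062, beside −0.010 for all rows. Called higher were 4 subunits (8.51% of the 47) and called lower were 4 (also 8.51%), against a background of 21.4% and 20.8%. The interval lay wholly above 0 for 5 subunits and wholly below 0 for 16, where the background was 27.1% and 29.1%. These shares too depend on the depth of the rows. The median of the mitochondrial mRNAs was 0.30 lower than that of the nuclear subunits on the log2 scale, and this difference was not tested, since there was 1 library per group. With scaling to total counts alone the nuclear median was above 0, and 15 of the 47 subunits changed from below to above 0.

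**Figure D2:**
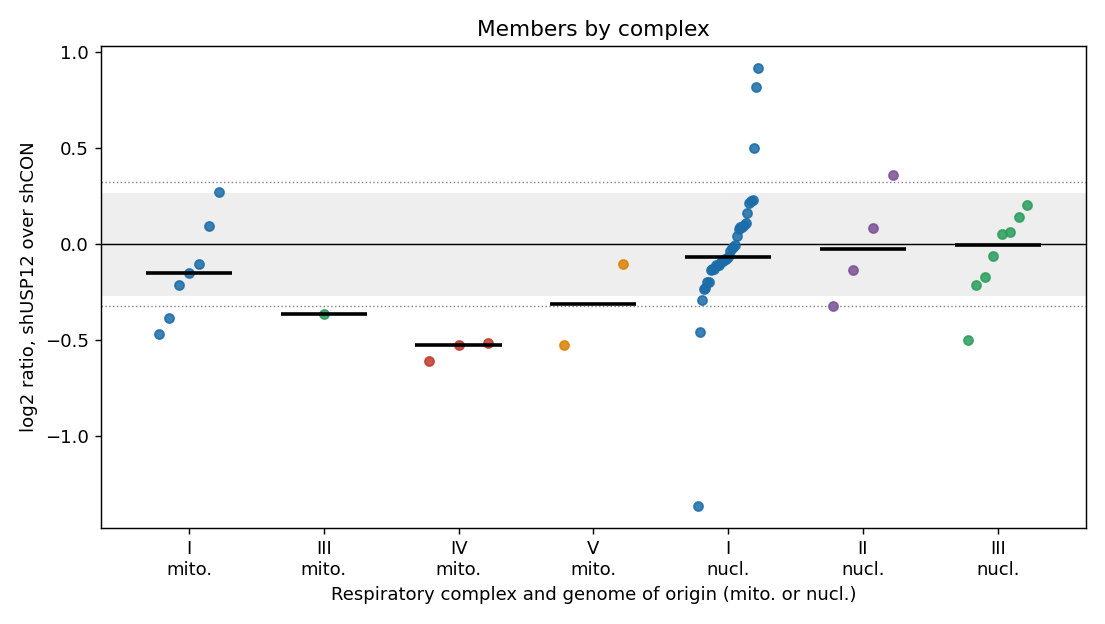
Log2 ratio of shUSP12 over shCON for each member with a mean of at least 1 CPM, by complex and by the genome that encodes it, with black lines at the medians. The grey band spans the middle 50% of all rows and dotted lines mark the call thresholds. The medians of the mitochondrial groups run from −0.53 (complex IV) to −0.15 (complex I), and those of the nuclear groups from −0.067 to −0.005.

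Complex I has 37 nuclear members in this list, of which NDUFA4 is now counted with complex IV. The N module, the part of the matrix arm that oxidises NADH, had 8 members with a median log2 ratio of −0.034. NDUFV1, the flavin subunit that binds NADH, had 2742 and 2670 counts (−0.11, interval −0.19 to −0.031). NDUFS1, which carries iron-sulphur clusters, had 2353 and 2159 counts (−0.19, interval −0.28 to −0.11). NDUFS6, an accessory subunit of this module, had 2556 and 2195 counts and the lowest ratio of the nuclear complex I members with at least 10 CPM, −0.29 (interval −0.37 to −0.21). NDUFS4, another accessory subunit, had 434 and 533 counts, a ratio of 0.23 (interval 0.041 to 0.41). The members of this module therefore lay on both sides of 0, and none of these 4 passed the call threshold.

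The Q module, which joins the N module to the membrane arm and reduces ubiquinone, had a median of −0.067 over the 7 of its 8 members with a mean of at least 1 CPM. NDUFA5 (ENSG00000128609), an accessory subunit encoded on chromosome 7 from 123536997 to 123557904, had 300 counts in shCON and 446 in shUSP12. Its log2 ratio of 0.50 (interval 0.29 to 0.72) was the highest of the nuclear members with a mean of at least 5 CPM. NDUFA9, often used as a protein marker of complex I, had 91 and 69 counts (−0.46, interval −0.94 to −0.002), and its exons overlap with 2 other genes. NDUFS8, a core iron-sulphur subunit, had 2032 and 1950 counts (−0.13).

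The nuclear subunits of the membrane arm, which surround the mitochondrially encoded proton pumps, had a median of −0.036 over 19 of 20 members. NDUFB5 was among the higher ones with 406 and 495 counts (0.22, interval 0.024 to 0.41). NDUFB2 (293 and 261 counts, −0.24) and NDUFA3 (534 and 479 counts, −0.23) were among the lower ones. The interval of NDUFB2, from −0.48 to 0.009, included 0. The 7 nuclear core subunits, which have counterparts in bacteria, had a median of −0.11, and the 27 accessory subunits past the filter had a median of −0.017.

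Complex II oxidises succinate and is shared with the tricarboxylic acid cycle. Its 4 subunits were split. SDHA, the flavoprotein that holds the active site, had 6542 and 5492 counts, a log2 ratio of −0.322 (interval −0.37 to −0.27), just past the call threshold. The call was lost with DESeq2 size factors (−0.30), with total counts alone (−0.19) and with a pseudocount of 1 CPM. SDHA has near-identical pseudogenes, so its count is uncertain. SDHC, a membrane anchor, had 3051 and 2921 counts (−0.13, interval −0.21 to −0.059). SDHB, the iron-sulphur subunit, had 845 and 941 counts (0.085), and its interval from −0.050 to 0.22 included 0. SDHD, the second membrane anchor, had 469 and 633 counts and was higher, at 0.36 (interval 0.19 to 0.54), a call that was lost with upper quartile factors (0.317).

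The 8 nuclear subunits of complex III had a median of −0.005, beside −0.36 for MT-CYB, which sits in the same complex. The 2 large core proteins went apart, with UQCRC1 at 4299 and 4676 counts (0.051, interval −0.009 to 0.11) and UQCRC2 at 2510 and 2339 (−0.17, interval −0.25 to −0.09). UQCRFS1, the Rieske iron-sulphur protein, had 2559 and 2319 counts (−0.21, interval −0.29 to −0.13). UQCRH, the hinge protein beside cytochrome c1, had 3178 and 3490 counts (0.065, with 24 and 45 counts for its near copy UQCRHL). UQCRB, UQCRQ and UQCR10, small subunits of the complex, had intervals that included 0, with ratios of −0.062, 0.20 and 0.14. UQCR11 had 185 and 137 counts and was the 1 nuclear subunit of the complex called lower, at −0.50 (interval −0.83 to −0.18).

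Levels of different genes were compared as CPM per kilobase of the Ensembl canonical transcript of GENCODE release 44. In both libraries each of the 13 mitochondrial mRNAs lay above each of the 49 nuclear subunits on this scale. In shCON the mitochondrial mRNAs ran from 425 CPM per kilobase (MT-ATP8) to 8685 (MT-CO1) with a median of 2979. In shUSP12 they ran from 397 to 6034 with a median of 2203. The nuclear subunits had medians of 47.8 and 49.6, and the highest was UQCRH with 339.5 and 355. The median of the mitochondrial mRNAs was thus 62.4 times that of the nuclear subunits in shCON and 44.4 times in shUSP12. Within complex I the same quotient was 44.6 and 45.3.

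Among the mitochondrial mRNAs the order of levels per kilobase began with MT-CO1, MT-CO2 and MT-CO3 in shCON. In shUSP12 MT-CO1 and MT-CO2 again came first, followed by MT-ND2 (3906), MT-ND4 (3605) and MT-ND1 (3093), with MT-CO3 at 2818 after them. MT-ND6, MT-ND4L and MT-ATP8 were the lowest 3 in both libraries.

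**Figure D3:**
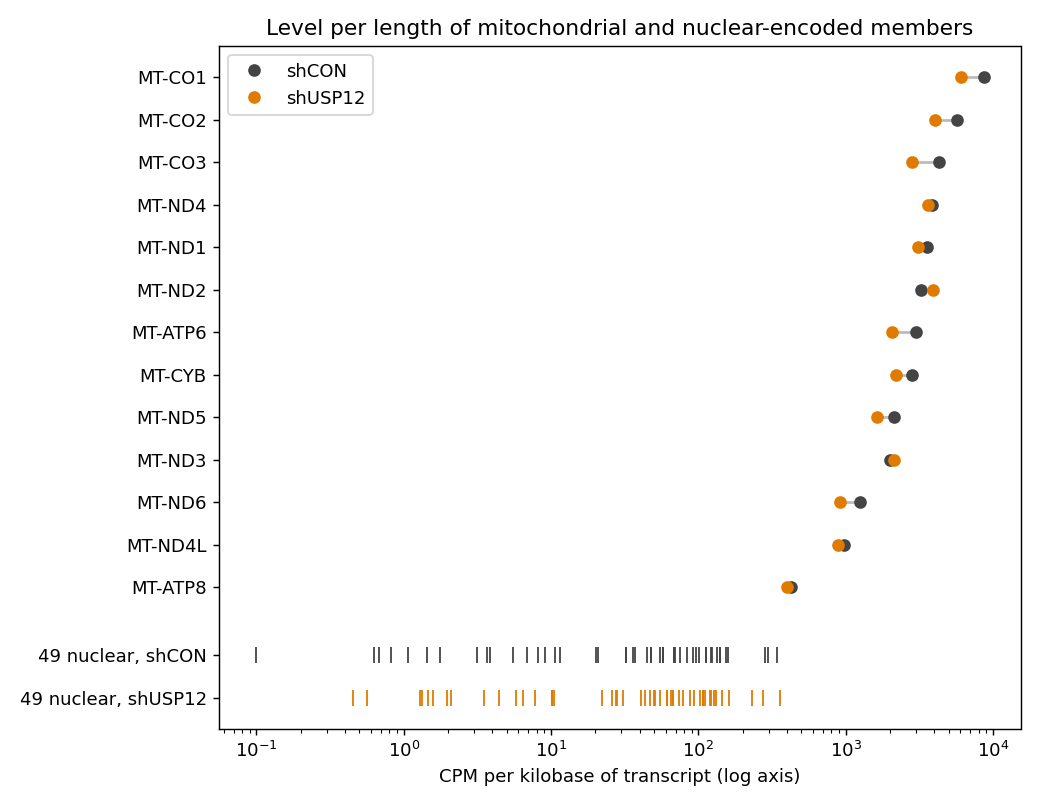
Level of each mitochondrial mRNA in CPM per kilobase of transcript on a log axis, in shCON (grey) and shUSP12 (orange), with the 49 nuclear subunits as ticks below. The mitochondrial mRNAs run from 397 to 8685 and the highest nuclear subunit, UQCRH, reaches 355.

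A group of nuclear subunits had counts far below those of their partners in the same complex. Of the 49, 10 had a mean under 10 CPM, and their median level in shUSP12 was 1.52 CPM per kilobase against 64.9 for the other 39. Core subunits of complex I were among them. NDUFV2, an iron-sulphur subunit that works beside NDUFV1, had 16 and 31 counts, and NDUFS7, a core subunit at the quinone site, had 19 and 18. NDUFB8 (8 and 18 counts) and NDUFA7 (1 and 6 counts) were the 2 members below the filter of 1 CPM. NDUFA13 (16 and 20), NDUFC2 (31 and 63), NDUFA11 (37 and 14), NDUFA2 (78 and 92), NDUFA9 and UQCR11 made up the rest. NDUFV2, NDUFS7, NDUFA13, NDUFC2, NDUFA11 and NDUFA2 were named after their values were seen.

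These low rows coincided with overlapping annotation. Of the 10, 8 share bases of the canonical transcript with exons of another gene on the same strand in GENCODE release 44, compared with 4 of the other 39. Those 4 were SDHA (69.4% of the transcript), SDHD (23.8%), NDUFB5 (10.1%) and NDUFS1 (3.35%). SDHA thus had a large shared part and also the most counts of the nuclear members. The genes that overlap SDHA and NDUFB5 on the same strand had no row of counts. Those that overlap SDHD and NDUFS1 on the same strand had rows with 0 counts in both libraries. SDHD itself had 469 and 633 counts, and NDUFS1 had 2353 and 2159. Among the 8 low rows the shared part was 90.0% of the transcript of NDUFV2, 83.9% of NDUFA13, 77.9% of NDUFA7, 72.0% of NDUFB8, 68.2% of NDUFA11, 19.7% of NDUFC2, 18.1% of UQCR11 and 11.7% of NDUFA9. The remaining 2 low rows, NDUFS7 and NDUFA2, share 51.3% and 27.4% with genes on the opposite strand. Such overlap also occurred in members with at least 10 CPM, among them NDUFB2 (24.3%) and NDUFB9 (23.9%). The genes that overlap the 8 low rows on the same strand had at most 7 counts in either library. NDUFC2-KCTD14, which spans NDUFC2, had 0 counts in both libraries, as had the rows that overlap NDUFV2, NDUFB8, NDUFA7, NDUFA11 and UQCR11 on the same strand. Fragments that fit 2 genes are often left uncounted, and the part of this in the low counts was not tested.

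The members with the largest differences came from this group. The 1 member at least 2-fold lower was NDUFA11 (−1.36, interval −2.47 to −0.55), against a background of 3.01%. NDUFC2 (0.92, interval 0.31 to 1.62) and NDUFV2 (0.82, interval −0.030 to 1.85) were the 2 members past the filter with a ratio of 1.5-fold or more upwards, against a background of 11.9%. NDUFA7 had an interval from −0.53 to 8.04. Without the 12 members that share same-strand bases, the remaining 37 nuclear subunits lay between −0.29 and 0.50, with 1 called higher, NDUFA5, and 0 called lower. The background of 21.4% of rows higher and 20.8% lower kept all rows from 1 CPM, with or without such overlap. It is thus not a like background for these 37, and one without overlapping rows was not computed. The median of the 37 subunits was −0.062, the same as with all members.

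**Figure D4:**
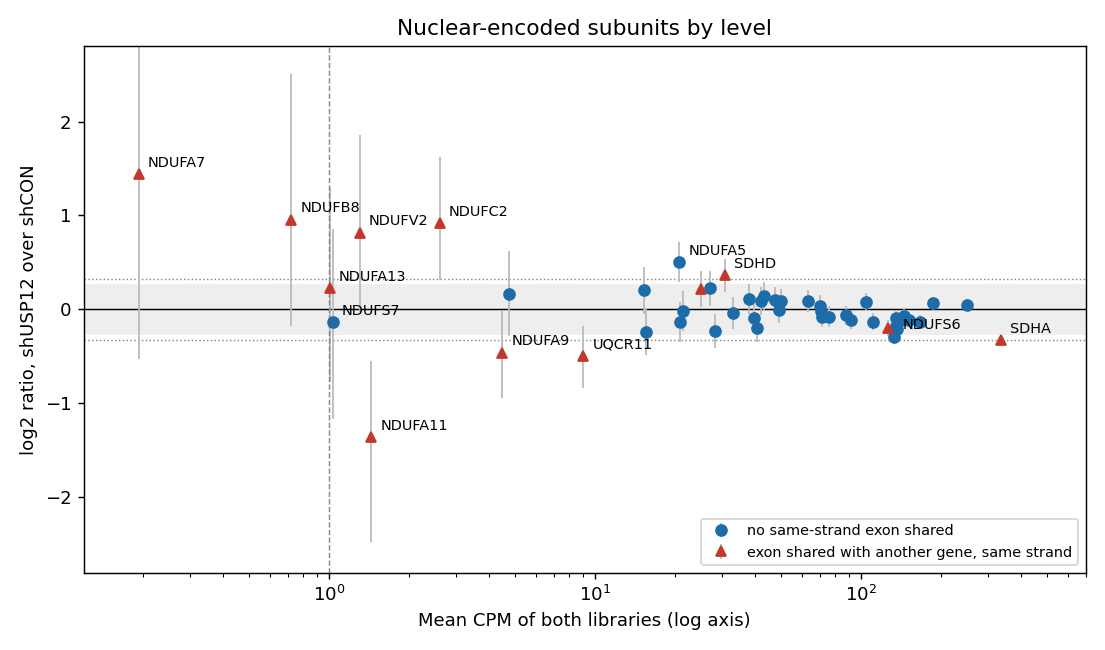
Log2 ratio of shUSP12 over shCON against mean CPM on a log axis for the 49 nuclear-encoded subunits, with 95% counting intervals and with triangles for members that share exon bases with another gene on the same strand. The point of NDUFA7 rests on 1 and 6 counts and its bar runs past the axis, to 8.04, the dashed line marks the filter of 1 CPM, the dotted lines mark the call thresholds and the grey band spans the middle 50% of all rows. The points fan out below 10 CPM, where 8 of 10 members are triangles.

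Promoters of nuclear respiratory genes are known for sites of NRF1 and GABPA, transcription factors that act on many mitochondrial genes, and of YY1. Promoter sequence from 250 bases before to 50 bases after the start was found for 41 of the 49 nuclear members in RefSeq (GRCh38.p14). The letters GCGCATGC, the core of the NRF1 motif, occurred on either strand in 7 of the 41 promoters (17.1%), beside 3.27% of 27305 promoters of all genes. The YY1 letters AAGATGGCG occurred in 7 (17.1%, beside 1.85%), and the ETS letters CCGGAAGT, which GABPA can bind, in 6 (14.6%, beside 4.44%). For CCAAT the shares were 26.8% and 35.7%, for the GC box letters GGGCGG 58.5% and 44.6%, and for CAAGGTCA, a site of oestrogen-related receptors, 4.88% and 1.33%. Motifs were searched without regard to overlap between them. The 7 members with the NRF1 core had a median log2 ratio of 0.085 and the 32 others past the filter −0.026, within the spread of the subunits.

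Both SDHB and SDHD, the complex II subunits with a ratio above 0, carried the NRF1 core, as did NDUFS6, the lowest of the nuclear complex I subunits with at least 10 CPM. The 80 bases around it are given for these 3 promoters, from 5′ to 3′ on the strand of the gene and with the core in capitals. They lie on GRCh38.p14 at chr1:17054189-17054268 (minus strand), chr11:112086727-112086806 (plus strand) and chr5:1801325-1801404 (plus strand).
SDHB: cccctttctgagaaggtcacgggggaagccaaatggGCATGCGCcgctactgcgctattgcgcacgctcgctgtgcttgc
SDHD: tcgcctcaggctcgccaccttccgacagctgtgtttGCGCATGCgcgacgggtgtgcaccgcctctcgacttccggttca
NDUFS6: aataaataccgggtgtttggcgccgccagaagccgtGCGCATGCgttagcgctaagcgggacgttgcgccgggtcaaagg
The same core stood in promoters whose genes had ratios of 0.085, 0.36 and −0.29. A match is a run of letters and not a shown binding site.

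The other subunits of the chain were taken from lists by role. The nuclear subunits of complex IV did not share the low ratio of the mitochondrial ones. Of 16 listed, 12 passed the filter, with a median of 0.080, 2 called higher (16.7%) and 0 called lower, where the background was 21.4% and 20.8%. These shares of all rows hold for each list below. COX7A2L, which ties complexes III and IV together, was highest among those with at least 5 CPM, at 1352 and 1813 counts (0.35, interval 0.25 to 0.46). The other one called higher, COX6B2, had 14 and 22 counts and an interval from −0.45 to 1.66 that included 0. COX7A2 was lowest among those with at least 5 CPM, at 2194 and 2139 (−0.11). For ATP synthase, 18 of 19 nuclear subunits passed, with a median of −0.063, 1 higher and 2 lower. The higher one was ATP5PO (44 and 67 counts, interval −0.033 to 1.12). The lower ones were ATP5F1A (10819 and 8828 counts, −0.36) and ATP5MC1, which encodes a copy of the rotating c subunit. ATP5MC1 had 2725 and 2088 counts (−0.45, interval −0.54 to −0.37). ATP5F1D, with 536 and 661 counts (0.23), was not called. Of 5 further genes of complexes I and III and their partners, with a median of −0.17, 1 was higher and 1 lower. These were UQCRHL (24 and 45 counts) and NDUFA4L2 (42 and 27, interval −1.46 to 0.024). CYC1, the cytochrome c1 of complex III, had 8386 and 7676 counts (−0.20), and NDUFAB1, the acyl carrier protein of complex I, had 1172 and 1393 (0.18). Neither CYC1 nor NDUFAB1 was called.

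Genes that copy, transcribe and process mitochondrial DNA and RNA were read next, because they act on the 13 mRNAs. Of the 21 genes for replication and transcription, 2 were called higher (9.52%) and 4 called lower (19.0%). The background was 21.4% and 20.8%, so the share called lower was near that of all rows. The median was −0.038. MTERF2, a mitochondrial transcription factor, had 139 and 75 counts (−0.94, interval −1.39 to −0.54), and its relative MTERF1 had 110 and 155 (0.42, interval 0.063 to 0.79). Also called lower were POLRMT (2607 and 1732 counts, −0.66, interval −0.75 to −0.57), TFB1M (118 and 92, −0.42) and LIG3 (575 and 469, −0.36). TK2 (227 and 308, 0.37) was the other gene called higher. TFAM (960 and 976, −0.046) and TFB2M (740 and 788, 0.021), which act in transcription, had intervals that included 0. Of the 21 genes, 9 lay above 0 and 12 below. Of the 25 genes for RNA processing and stability, 2 were higher (8%) and 4 lower (16%), beside the same background, and the median was −0.097. TRMU, which modifies mitochondrial tRNAs, had 1757 and 1255 counts (−0.55, interval −0.66 to −0.45), and TRMT5 had 337 and 474 (0.42). FASTKD2 (594 and 785, 0.33) was the other gene called higher. Also called lower were PTCD1 (49 and 33), FASTK (1663 and 1392, −0.33) and MRM3 (259 and 210, −0.37). LRPPRC (3347 and 3840, 0.13) and SLIRP (683 and 845, 0.24) lay above 0 without a call. Of the 25 genes, 12 lay above 0 and 13 below. Among 12 nuclear regulators, with a median of −0.11, 0 were higher and 1 was lower, PPRC1, a coactivator of respiratory genes, with 3051 and 2145 counts (−0.58, interval −0.66 to −0.50). GABPB1, a partner of GABPA, was highest of these with 286 and 374 counts (0.315), short of the call threshold.

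Lists for assembly, translation and the rest of the organelle had medians between −0.10 and 0.11. The shares called in them are to be read against 21.4% of all rows higher and 20.8% lower. The 18 complex I assembly factors had 2 higher and 0 lower, from NDUFAF3 (−0.30) to NDUFAF8 (0.35). Of 10 assembly factors of complexes II and III, 3 were higher and 1 lower, the latter being UQCC3 with 36 and 25 counts. SDHAF3 had 107 and 181 counts (0.68, interval 0.34 to 1.05), while UQCC1, the lowest with at least 5 CPM, stood at −0.020. Of 22 complex IV assembly factors past the filter, 4 were higher and 0 lower, with COX14 at 60 and 126 counts (0.98, interval 0.55 to 1.47) and COX19 at −0.28. The 13 translation factors had 2 higher and 0 lower, from MRRF (−0.24) to MRPL58 (0.66). The mitochondrial ribosomal proteins had 3 higher and 3 lower of 75, from MRPL39 (−0.37) to MRPL54 (0.36) among those with at least 5 CPM. The tricarboxylic acid cycle genes had 0 higher and 0 lower of 13, from SUCLG2 (−0.23) to DLST (0.12). The membrane and import genes had 2 higher and 4 lower of 27, from HSPE1 (−0.53) to TIMM8B (0.41). No list of nuclear genes had a median as low as that of the mitochondrial mRNAs. MALAT1 and NEAT1, long RNAs kept in the nucleus, had 1100 and 2486 counts (1.11) and 3476 and 4021 counts (0.14), and KCNQ1OT1 had 96 and 126 (0.32, interval −0.072 to 0.72). Whether a different balance of nuclear and mitochondrial RNA in the preparations has a part in the mitochondrial values was not tested.

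**Figure D5:**
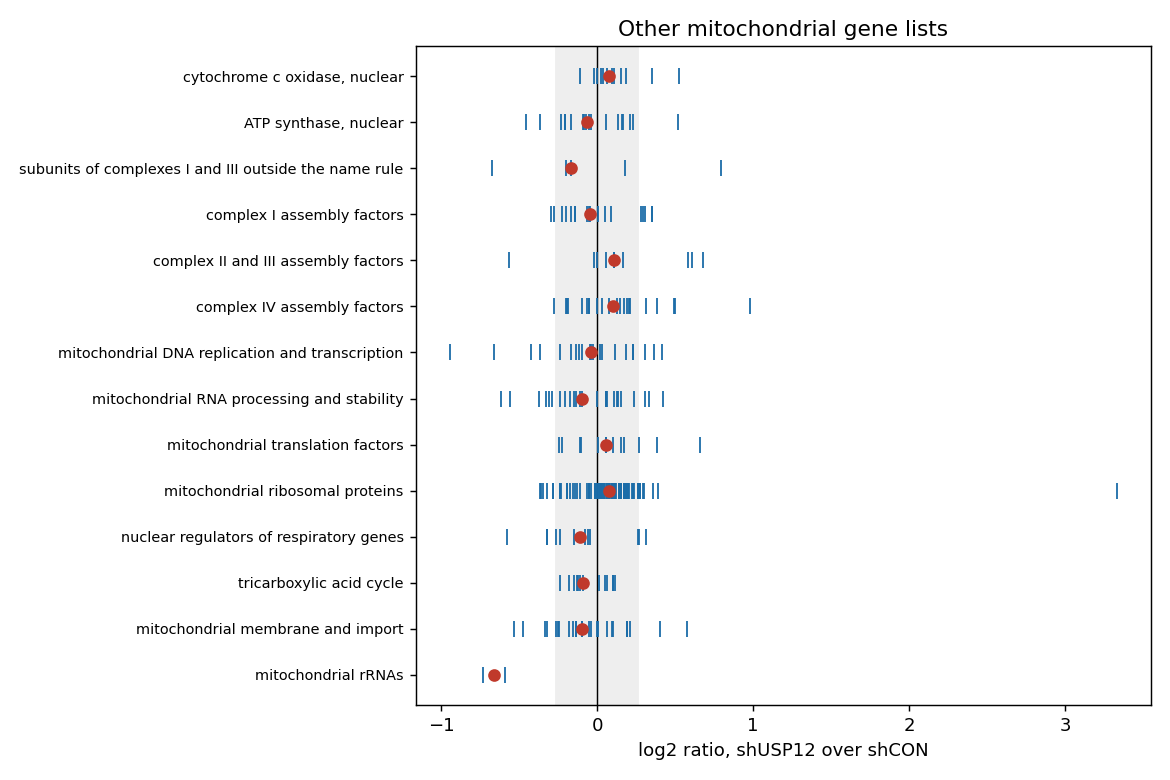
Log2 ratio of shUSP12 over shCON for the genes of 14 other mitochondrial lists with a mean of at least 1 CPM, as ticks, with each list's median as a red point and the middle 50% of all rows in grey. The medians of the 13 lists of nuclear genes lie between −0.17 and 0.11, and that of the 2 mitochondrial rRNAs lies at −0.66. The rRNA counts are what remained after filtering and give no rRNA level. The lone tick at 3.33 is MRPL23 (6 and 80 counts).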

How the data were processed

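RNA from 1 H1944 library with a control hairpin and 1 with a hairpin against USP12 was sequenced as stranded mRNA libraries. The deposited tables gave counts of fragments for each gene as whole numbers, without normalisation by the authors. The methods of the study name Hisat2 2.0.4 with GRCh38 for alignment, Seqtk for trimming and rRNA filtering, and StringTie for counting unique fragments, whereas the submitters' processing notes list Trimmomatic and HTSeq 0.6.0, so the counting rule and its use of strand are not settled. The annotation release is not given in the sources used here. From the table of each library, 91 lines without a count were left out, and 59125 rows remained.

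Groups were taken from the treatment labels. CPM values used TMM factors of edgeR 4.0.16 in R 4.3.3 (0.955 for shCON, 1.05 for shUSP12). The log2 ratio carried a pseudocount of 0.1 CPM, rows needed a mean of 1 CPM, and a log2 ratio of 0.322 in either direction was the call rule. With 1 library per group no test was run. Intervals cover counting error only, because 1 library per group gives no spread between cultures. Fragments are not independent molecules, which the intervals do not allow for. Coordinates, lengths and overlaps came from GENCODE release 44 (99.1% of Ensembl identifiers matched) and are counted from 1. The procedure was tested on simulated data that held counting error alone, the model on which the intervals rest. That test checks the calculation and cannot speak to spread between cultures or to misassigned fragments. Other scalings, including DESeq2 1.42.0 size factors, pseudocounts, filters, fold thresholds, means and smaller member sets were tried as alternatives. The members, lists and motifs were chosen with earlier results of these data known. Genes named were all mitochondrial mRNAs, the 6 highest and 6 lowest nuclear members with at least 5 CPM, SDH and complex III subunits, NDUFS1, NDUFV1, NDUFA9, members below the filter, USP12, and the highest and lowest gene with at least 5 CPM of each list. Further genes of some lists, called or not, were named after their values were seen. Python 3.11.15, NumPy 2.4.6, pandas 2.3.3, SciPy 1.17.1 and Matplotlib 3.10.9 were used.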

Additional observations from a re-analysis of the deposited data

How the results depend on the processing

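No paired analysis was possible because only 1 library stood in each group, and for the same reason no replicate could be left out. The 2 libraries limit every value here to counting precision, and of the 8 subunits under 10 CPM that passed the filter, 4 had an interval that included 0. Of 372 values of single members under 6 alternative scalings and pseudocounts, 319 stayed inside their counting interval, 53 moved, and none of those past the call threshold changed sign. With total counts in place of TMM factors the median of all rows shifted by 0.13 and 68.9% of the called rows were higher, against 50.8% with TMM factors, and the other scalings shifted it by less than 0.05. With total counts alone the mitochondrial median was −0.23, with DESeq2 size factors −0.34, with upper quartile factors −0.41, with the mean in place of the median −0.28 and without the 4 overlapping reading frames −0.39. The shifts under the scalings follow from their construction, since a scaling moves every row of a library by the same amount.

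The summed ratio of the mitochondrial subunits with total counts alone, DESeq2 size factors and upper quartile factors was 0.029, −0.080 and −0.15 for complex I, −0.23, −0.34 and −0.41 for complex III, −0.40, −0.51 and −0.58 for complex IV, and −0.37, −0.48 and −0.55 for complex V. That of the nuclear subunits was 0.068, −0.041 and −0.11 for complex I. With total counts alone and upper quartile factors it was −0.065 and −0.24 for complex II, and 0.10 and −0.077 for complex III. The difference between the mitochondrial and nuclear medians lay between −0.33 and −0.25 in the 11 alternatives in which it was computed. The alternative scalings could not test this difference, because they move both medians by nearly the same amount. The pseudocounts hardly act on rows of this level and left it at −0.30.

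With total counts alone 1 mitochondrial mRNA (MT-ND2) and 8 nuclear subunits were called higher, where 30.5% of all rows were, and 5 mitochondrial mRNAs and 3 nuclear subunits were called lower, where 13.7% of all rows were. MT-CYB (−0.23) and MT-ND5 (−0.25) then lost their call. With a mean of at least 10 CPM, 2 nuclear subunits were higher and 1 lower. The share of all rows called at that filter was not computed, so these 2 counts have no background. A threshold of 1.5-fold left 1 mitochondrial mRNA lower, 2 nuclear subunits higher and 1 lower, against 11.9% of all rows higher and 9.11% lower. A threshold of 2-fold left 0, 0 and 1, against 6.48% higher and 3.01% lower. Without the members that share same-strand bases, an alternative chosen after seeing the data like the addition of nuclear copies, 1 nuclear subunit was higher and 0 were lower. The share of all rows without such overlap was not computed, so these counts have no like background.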
